A study of Mus musculus with 14 samples.

Results

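The names mmu-miR-8112, mmu-miR-6240, mmu-miR-3535, mmu-miR-3968, mmu-miR-706 and mmu-miR-3963, written without mmu below, are 6 of the 1695 mouse microRNA (miRNA) names in a count table of small RNA from neutrophil vesicles. They were picked by name because earlier results of the same data had shown them to be late-numbered or doubtful entries with notable counts or a notable difference between treatments. Their abundance and their difference between treatments are therefore given as a description. The p-values printed for them are those of a fit across all names, and with names chosen in this way they are no independent test. All 6 names were found in the table, and 5 of them had enough counts to enter the comparison.

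Small extracellular vesicles are membrane particles that cells release. Here they came from primary Ly6G+ neutrophils of the bone marrow of WT BALB/c female mice. Treatment lasted 48 h, either with the cholesterol metabolite 27HC (27-hydroxycholesterol) at 10 µM or with DMSO, its solvent. Each treatment had 7 libraries, with replicate numbers from 1 to 7. The labels do not say whether they came from separate animals or cultures, or whether cells were pooled, so that every spread and p-value here measures differences between these libraries. The vesicles were collected with a commercial kit.

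A canonical miRNA is cut from a hairpin by Drosha and Dicer and guides an Argonaute protein to messenger RNAs through its seed, the bases next to the 5′ end. miRNA names are numbered in the order of registration. Abundant RNAs of other kinds also break into fragments of miRNA size, among them ribosomal RNA, transfer RNA and small nucleolar RNA (snoRNA), and interspersed repeats lie in many transcripts. Vesicles are known to carry such fragments beside miRNAs. A count under a miRNA name shows that reads were assigned to that name, not which transcript they were cut from.

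The mature sequences are shown because they allow the label of a fragment name to be checked. They come from RefSeq for the build GRCm38.p6 and run from 5′ to 3′, with the seed, bases 2 to 8, in capitals. All 6 names matched an entry there.
miR-8112: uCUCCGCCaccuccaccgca
miR-6240: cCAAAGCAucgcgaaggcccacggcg
miR-3535: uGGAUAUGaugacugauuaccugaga
miR-3968: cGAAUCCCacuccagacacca
miR-3963: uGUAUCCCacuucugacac
miR-706: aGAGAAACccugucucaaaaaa

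No pair of the 6 shared a seed. The seed of miR-6240 was that of miR-330-3p, and the seeds of the other 5 occurred under no other of the 1431 names with a mature sequence. The lengths ran from 19 to 26 bases. miR-6240 and miR-3535 had 26 bases, a length reached or exceeded by 12 of the 1431 names (0.839%), whose median length was 22 bases. miR-8112 and miR-6240 were rich in G and C, at 70.0% and 69.2%, and miR-706 and miR-3535 were poor in them, at 36.4% and 38.5%, beside a median of 52.4% over those names. Among pairs of the 6, miR-3968 and miR-3963 had the highest identity. Laid side by side from the 5′ end they had the same base at 15 of 19 positions (78.9%), with a shared run of 8 bases.

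The sequence of miR-3535 lies in a snoRNA. It maps to chr1:86352062-86352087 on the minus strand and forms bases 1 to 26 of the 80-base snoRNA gene Gm24148 at chr1:86352008-86352087, which lies within Ncl, the gene of the nucleolar protein nucleolin, on the same strand. The annotated miRNA hairpin of miR-3535 itself, at chr1:86351981-86352127 on the same strand, spans the whole snoRNA gene. The snoRNA is shown from 5′ to 3′ as DNA, with the bases of miR-3535 in capitals, to place the name within it.
Gm24148: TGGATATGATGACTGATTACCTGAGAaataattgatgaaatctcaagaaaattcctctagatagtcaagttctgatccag

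C/D box snoRNAs guide the methylation of ribosomal RNA and carry a box C near the 5′ end and a box D near the 3′ end. The letters TGATGA, the core of a box C, stand at bases 7 to 12 of Gm24148, inside the part named miR-3535, and the last CTGA, the letters of a box D, stands at bases 72 to 75. Only the transcript strand was searched. Among 454 GENCODE snoRNA transcripts of 60 to 100 bases, 64.8% had TGATGA in the first 15 bases, 81.1% had CTGA in the last 15, and 61.7% had both. Gm24148 held TGATGA at 2 sites and CTGA at 3. These letters are a description of the sequence. Among the mature names, 10 (0.699%) held UGAUGA.

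Whole sequences were then searched, on the strand given and without mismatch, in the GENCODE M21 transcripts of GRCm38 other than miRNA genes. miR-3535 was found in 1 gene, Gm24148. miR-8112 was found in 1 gene, the protein-coding Krcc1. miR-706 was found in 208 genes, of which 171 were protein-coding and 1 was a short RNA of another class. With 1 mismatch allowed it was found in 824 genes, and its first 18 bases were found in 344, 1 of them a snoRNA. miR-6240, miR-3968 and miR-3963 were found in 0.

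Over the 1431 names with a sequence, 77.8% had no such match, 13.9% matched a protein-coding gene, 17 names (1.19%) matched a snoRNA, and 5 names (0.349%) matched 10 or more genes. The reference used here thus places miR-3535 in a snoRNA and, at the same place, in its own miRNA hairpin. Which of them its reads came from was not tested. For the other 5 names the label of a fragment of short non-coding RNA was not borne out by a whole match, beside the 1 short RNA among the many genes of miR-706. Ribosomal RNA was searched only as far as the GENCODE transcripts hold it. The large ribosomal RNAs and cytosolic transfer RNAs were not searched, since their sequences were not used here. The 6 names are therefore called by their names below.

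The annotated positions differ in kind. The sequence of miR-8112, at chr6:71271745-71271764 on the plus strand, lies in the first exon of Krcc1, in the annotated 5′ UTR on the same strand, and in an intron of Smyd1, on the opposite strand. That of miR-706, at chr6:120034290-120034311 on the minus strand, lies in an intron of Wnk1, the gene of a kinase that controls ion transport, on the same strand. That of miR-3968, at chr11:115447969-115447989 on the minus strand, lies opposite a coding exon of Trim80.

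The sequence of miR-6240, at chr5:114851973-114851998 on the plus strand, and that of miR-3963, at chr3:151023839-151023857 on the minus strand, overlapped no gene other than their own hairpins. miR-3968 ended in CCA, as did 17 of the names with a sequence (1.19%). Mature transfer RNAs end in these bases. These coordinates belong to the annotation. Per the submitters' processing notes the authors used GRCm39, and their table holds no positions.

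Library totals ran from 112914 to 871189 counts. With these totals 3 counts, taken here as the upper limit for a listed 0, were worth 4.06 to 24.4 counts per 1000000 (CPM). CPM values here use library totals scaled by edgeR's TMM method. The miRNAs listed as myeloid markers, miR-223-3p, miR-223-5p, miR-142a-3p, miR-142a-5p and miR-146a-5p, were all tested. They summed to between 100961 and 235085 CPM in DMSO libraries and between 120059 and 158650 CPM in 27HC libraries. The sum does not show how single markers differed. miR-142a-3p is a miRNA of blood cells and is given by itself below. Markers of other cells were present in both groups, none at 0 over the libraries. The 3 erythroid markers, of which 1 was tested, summed to 485 to 1043 CPM with DMSO and 724 to 1096 CPM with 27HC. The 3 epithelial markers summed to 133 to 404 and 230.2 to 427 CPM, the 3 muscle markers to 133 to 1241 and 327 to 1957 CPM, and the endothelial miR-126a-3p ran from 288 to 633 and from 258 to 573 CPM. The liver miRNA miR-122-5p ran from 2457 to 4552 CPM in DMSO and from 1881 to 3644 CPM in 27HC libraries. The lymphoid miR-150-5p ran from 139.8 to 373 CPM in DMSO and from 73.2 to 170.3 CPM in 27HC libraries. The part of these RNAs in the differences below was not tested. In pooled vesicles, fewer vesicles of one kind and fewer copies per vesicle cannot be told apart.

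Together the 6 names took 0.0944 ± 0.0222% of a library with DMSO and 0.0680 ± 0.0550% of a library with 27HC (SD, n = 7). The difference lay within the spread of the 27HC libraries, which ran from 0.0266% to 0.186%. The highest of them was 27HC replicate 5, and without it the 27HC mean was 0.0482 ± 0.0192% (SD, n = 6). The difference, 27HC minus DMSO, was −0.0264 percentage points over all libraries, −0.0499 in replicates 1 to 4 and 0.0048 in replicates 5 to 7, which hold 27HC replicate 5. miR-3968 gave 41.7% of all counts of the 6 names, miR-8112 24.9%, miR-6240 14.03%, miR-3535 12.2% and miR-706 7.03%. miR-3963 gave 5 counts in all. By total counts miR-3968 ranked 114th and miR-706 210th of the 1695 names. Counts of different names depend on how well each sequence is captured, and they were not compared further as levels.

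**Figure D1:**
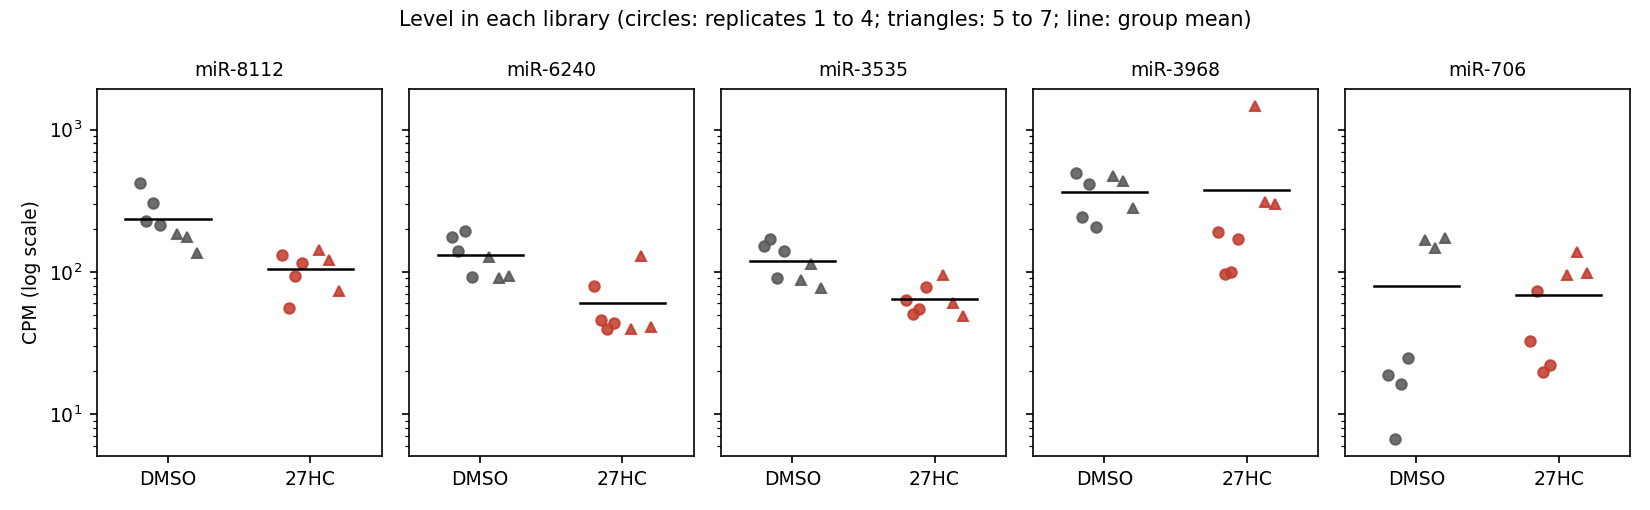
CPM of the 5 tested names in each library, on a log scale shared by the panels, with DMSO libraries in grey and 27HC libraries in red. Circles are replicates 1 to 4, triangles are replicates 5 to 7, and the line is the group mean. The libraries with 27HC lie mostly under those with DMSO for miR-8112, miR-6240 and miR-3535, 1 library with 27HC lies far above the others for miR-3968, and miR-706 separates by replicate number within both groups.

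miR-8112, the name within the first exon of Krcc1, stood lower in libraries with 27HC. In DMSO libraries its lowest, median and highest levels were 136, 213 and 418 CPM, from 23 to 226 counts. In 27HC libraries they were 55.2, 116 and 143 CPM, from 9 to 56 counts. Only 1 of the 7 libraries with 27HC reached into the range of the DMSO libraries, and the other 6 lay under it. The means were 237 ± 95.8 and 105 ± 32.0 CPM (SD, n = 7), and the fitted log2 fold change was −1.18 (SE 0.27), a level 2.26-fold lower with 27HC.

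miR-6240, the GC-rich name of 26 bases, showed a difference of like size on fewer counts. Its lowest, median and highest levels were 90.3, 127 and 195 CPM with DMSO, from 16 to 144 counts. With 27HC they were 39.6, 43.9 and 129 CPM, from 5 to 34 counts. Again 6 libraries with 27HC stayed under the whole DMSO range, and 27HC replicate 6, the highest of its group, lay within it. The means were 131 ± 42.7 and 59.8 ± 33.7 CPM (SD, n = 7), and the log2 fold change was −1.14 (SE 0.31), or 2.20-fold lower.

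miR-3535, whose sequence is that of the 5′ end of the snoRNA Gm24148, differed least among the 3 lower names. Its lowest, median and highest levels were 76.5, 113 and 170.2 CPM with DMSO, from 11 to 67 counts. With 27HC they were 48.8, 60.7 and 95.5 CPM, from 6 to 27 counts. The groups overlapped more here, and 5 libraries with 27HC, of 7, were under the whole DMSO range. The means were 118 ± 35.9 and 64.6 ± 16.9 CPM (SD, n = 7), and the log2 fold change was −0.88 (SE 0.24), or 1.84-fold lower.

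miR-3968, the name that ends in CCA, had nearly the same mean in both groups and a very uneven spread. Its lowest, median and highest levels were 207, 417 and 493 CPM with DMSO, from 59 to 308 counts. With 27HC they were 96.7, 190.2 and 1472 CPM, from 20 to 185 counts. With 27HC, 4 libraries lay under the whole DMSO range and 1, replicate 5, lay far above the highest. The means were 364 ± 117 and 377 ± 490.4 CPM (SD, n = 7), with a log2 fold change of 0.026 (SE 0.53), whose sign changed under several scalings and covariates. Without 27HC replicate 5 the log2 fold change was −0.86 (SE 0.32), with an adjusted p of 0.109 in edgeR's quasi-likelihood test, so that this library decides the value.

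miR-706, the name found in many genes, overlapped fully between treatments. Its lowest, median and highest levels were 6.67, 24.9 and 173 CPM with DMSO, from 2 to 52 counts. With 27HC they were 19.8, 73.6 and 137 CPM, from 4 to 18 counts. No library with 27HC lay outside the range of the DMSO libraries. The means were 79.1 ± 78.4 and 68.3 ± 44.8 CPM (SD, n = 7), and the log2 fold change of −0.21 (SE 0.69) was smaller than its own error and changed sign under other covariates.

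miR-3963, the shortest name, was listed with 2, 1 and 2 counts in DMSO replicates 1, 2 and 7 and with 0 counts in the other 4 DMSO libraries and in all 7 libraries with 27HC. Every value lay at or under 3 counts, so that no fold is given and no difference was detectable at this depth. miR-3968, with which it shares 15 of 19 bases, had 1246 counts in all. The rule the authors used for reads that match several names is not given in the sources used here.

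Among the 5 names with enough counts for the test, 3 were called lower with 27HC at an adjusted p under 0.05 in edgeR's quasi-likelihood test, and 0 were called higher. Of all 239 names tested, 8.79% were called lower and 3.77% higher, 12.6% in all. Since the 6 names were picked with this contrast in view, nothing is read from their count. The median log2 fold change was −0.88 over the 5 names and 0.010 over all names tested, and it describes the choice of the names in the same way. Non-overlapping groups, lower with 27HC, were seen for 3.35% of all names tested (5.44% in either direction) and for 0 of the 5 names.

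Single libraries left out changed some of these calls, which is given as a description of the fits and not as a measure of how firm each difference is. The call of miR-8112 was kept in all 14 fits that left out 1 library, with a highest adjusted p of 0.0306 in edgeR. That of miR-6240 was lost in 7 of the 14, without DMSO replicates 1 and 3 and without 27HC replicates 2, 3, 4, 5 and 7, with edgeR adjusted p-values from 0.0566 to 0.0685. That of miR-3535 was lost in 8 of the 14, without DMSO replicates 1, 2 and 4 and without 27HC replicates 1, 2, 3, 6 and 7, with edgeR adjusted p-values from 0.0508 to 0.0676. The direction of these 3 names was the same in every alternative fit.

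**Figure D2:**
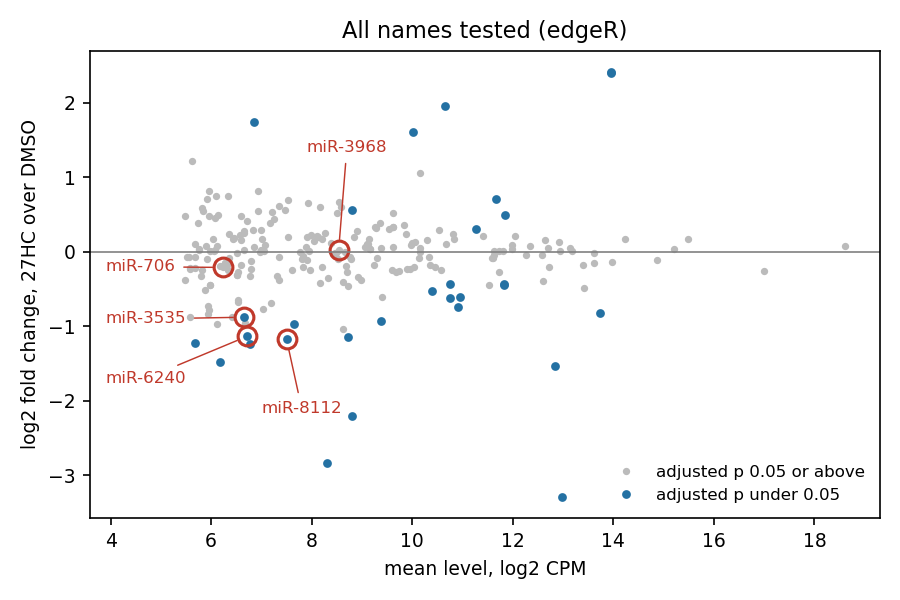
log2 fold change, 27HC over DMSO, against the mean log2 CPM of each of the 239 names tested, with names called by edgeR in blue and the 5 tested names circled in red. The circled names lie in the lower part of the range of levels, and miR-8112, miR-6240 and miR-3535 lie among the 21 names called lower.

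Earlier results of these data had shown that whole profiles separate replicates 1 to 4 from replicates 5 to 7 in both treatments. The labels do not say what this split marks, and each set holds both treatments, so that the difference between treatments can be given within each. In replicates 1 to 4 the log2 fold changes were −1.45 (SE 0.31) for miR-8112, −1.42 (SE 0.34) for miR-6240, −1.06 (SE 0.29) for miR-3535 and −1.19 (SE 0.33) for miR-3968. In edgeR's test within that set 10.7% of names were called lower, and these 4 were among them. miR-706 did not pass the filter there. In replicates 5 to 7 the values were −0.52 (SE 0.34) for miR-8112, −0.51 (SE 0.50) for miR-6240, −0.40 (SE 0.42) for miR-3535, 0.83 (SE 0.57) for miR-3968 and −0.55 (SE 0.30) for miR-706. There 3.54% of names were called lower and 0 of the 5 were called.

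An interaction term in edgeR, fitted over all names, compared the response of the sets. For miR-3968 it was 2.09 (SE 0.71), with an adjusted p of 0.267 in the quasi-likelihood test. For miR-706 it was −1.65 (SE 0.62) and for the other 3 names it ran from 0.71 to 0.99, with edgeR adjusted p-values from 0.335 to 0.525. The sets were thus not shown to differ in their response for any of the 5 names. The set of replicates 5 to 7 held 3 libraries per treatment, among them the 27HC library that is high in miR-3968.

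**Figure D3:**
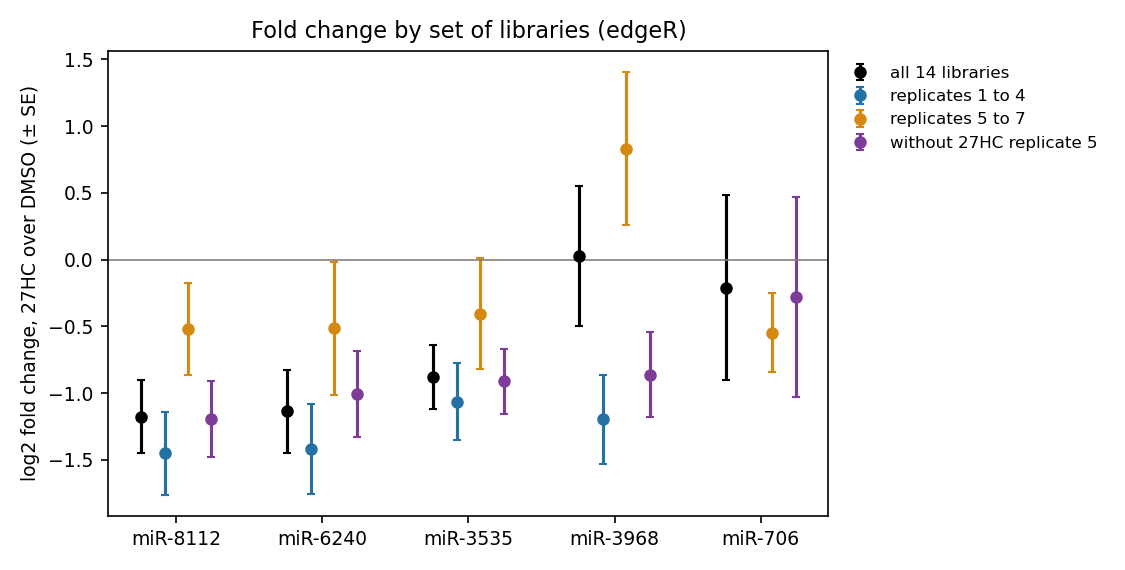
log2 fold change, 27HC over DMSO, of the 5 tested names in edgeR fits of all 14 libraries, of replicates 1 to 4, of replicates 5 to 7, and of all libraries but 27HC replicate 5, with bars of 1 SE. miR-8112, miR-6240 and miR-3535 lie under 0 in each fit, and miR-3968 lies at −1.19 in replicates 1 to 4 and at 0.83 in replicates 5 to 7. miR-706 has no value in replicates 1 to 4.

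miR-706 separated by replicate number and not by treatment. In DMSO libraries it stood at 16.7 ± 7.57 CPM in replicates 1 to 4 (SD, n = 4) and at 162 ± 13.8 CPM in replicates 5 to 7 (SD, n = 3), 9.75-fold higher. In 27HC libraries it stood at 37.1 ± 25.0 CPM and 109.9 ± 23.2 CPM, 2.97-fold higher. The sets did not overlap in either treatment, which held, with the higher level in replicates 5 to 7, for 7.11% of all names tested. The lower set rests on few counts, 2 to 16 in a library.

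The other tested names did not separate by replicate number in both treatments. miR-8112 did so with DMSO alone, where it stood at 291 ± 94.1 CPM in replicates 1 to 4 and at 165 ± 24.9 CPM in replicates 5 to 7. With 27HC it stood at 99.2 ± 33.1 and 113 ± 35.8 CPM. miR-3968 did so with 27HC alone, at 139 ± 48.1 and 695 ± 673 CPM, the second value carried by 1 library. Since the split was chosen with these profiles known, no test of the levels between the sets is given. The interaction term above used the same split and has the same limit.

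The spread within groups differed widely among the 5 names. The pooled within-group SD of log2 CPM was 1.32 for miR-706, the 8th highest of the 239 names tested, and 0.99 for miR-3968, the 19th highest. It was 0.52 for miR-6240, 0.49 for miR-8112 and 0.37 for miR-3535, beside a median of 0.41 over all names tested. From the lowest to the highest library miR-706 spanned 25.9-fold, miR-3968 15.2-fold and miR-3535 3.49-fold.

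Names whose levels moved most like those of each name were found by Pearson's r of log2 CPM over the 14 libraries, after the group means were taken out. These values are descriptions, and libraries share depth and replicate set. For miR-706 the closest were miR-181b-5p and let-7b-5p, at 0.91 each, and miR-1895, at 0.88. All 3 separated replicates 1 to 4 from replicates 5 to 7 without overlap in both treatments. The mean of miR-1895 was 60.3 CPM in the first set and 751 CPM in the second with DMSO, and 102 and 527 CPM with 27HC.

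For miR-8112 the closest were miR-200c-3p at 0.72, miR-532-3p at 0.71 and miR-142a-3p at 0.68. For miR-6240 they were miR-142a-3p at 0.69, miR-181a-5p at 0.67 and miR-26b-5p at 0.62. miR-142a-3p, a miRNA of blood cells, was itself lower with 27HC, at 10831 ± 4089 CPM with DMSO and 3742 ± 662 CPM with 27HC (SD, n = 7). For miR-3535 they were miR-184-3p at 0.72, miR-532-3p at 0.64 and miR-8112 at 0.61. For miR-3968 they were miR-6374 at 0.72, let-7c-5p at 0.66 and miR-152-3p at 0.66.

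Among the 5 names the 3 lower ones did not all move together once the group means were taken out. The r of miR-8112 was 0.61 with miR-3535 and 0.56 with miR-6240, while that of miR-6240 with miR-3535 was 0.03. Over the DMSO libraries these 3 values were 0.51, 0.83 and 0.15, and over the 27HC libraries 0.78, 0.36 and −0.080. They rest on few counts in some libraries, where counting noise weakens r. The r of miR-706 was −0.50 with miR-8112 and −0.51 with miR-3535. By group the values of miR-706 were −0.73 and −0.72 over the DMSO libraries and −0.11 and −0.056 over the 27HC libraries (n = 7 each).

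Of 48 other names registered within 10 of the numbers of the 6, 2 had enough counts to be tested. The 48 held 0.129% of all counts, beside 0.0761% for the 6 names, and 3437 of their counts were of miR-8117. miR-8117 stood at 745 ± 344 CPM with DMSO and 1541 ± 639 CPM with 27HC (SD, n = 7). The fitted difference was 1.05 on the log2 scale (SE 0.34), and edgeR's quasi-likelihood test gave an adjusted p of 0.0529. miR-709, near miR-706 by number, stood at 129 ± 88.4 and 176 ± 116 CPM, with a log2 value of 0.44 (SE 0.50) for the difference and an edgeR adjusted p of 0.683. edgeR called 0 of them, with 1 at an unadjusted p under 0.05, DESeq2 called 1, miR-8117, and limma-voom called 0.

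Of the other 841 names numbered 3000 or above, 26 were tested (3.09%), of which 4 were called higher, 0 were called lower, and the median log2 fold change was 0.42. Of the 848 names numbered under 3000, 208 were tested (24.5%), of which 5 were called higher and 18 lower, with a median of −0.014. miR-8112, miR-6240 and miR-3535, called lower, were picked with this contrast in view, so that nothing is read from how their direction differs from these calls. How the lists differ was not tested.

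Other names with an exact match in a snoRNA gene were listed after the matches were seen. Of 16 such names 5 were tested: miR-1839-5p, miR-1843a-5p, miR-1843b-5p, miR-3068-5p and miR-3068-3p. The tested miR-1843 names matched Scarna3b, and miR-1843b-5p also Scarna3a. The genes matched by miR-1839-5p included Mir1839, and those matched by both miR-3068 names included Mir3068. These genes carry the miRNA's own name, so that the snoRNA match may there be to the name's own locus. For miR-3535 too, the matched snoRNA lies within the name's own hairpin. The log2 fold changes of the 5 tested names ran from −0.097 to 0.42. edgeR called 0 of them, with 0 at an unadjusted p under 0.05, and DESeq2 and limma-voom called 0. Whether they differed from miR-3535 in their response was not tested. The most abundant, miR-1839-5p, stood at 648 ± 87.6 CPM with DMSO and 670 ± 69.2 CPM with 27HC (SD, n = 7). The other 11 had too few counts. Among them, named after their values were seen, miR-5121, found in Snord33 and its host gene Rpl13a, stood at 22.5 ± 16.2 CPM with DMSO and 7.86 ± 8.29 CPM with 27HC (SD, n = 7). miR-1843a-3p stood at 9.53 ± 10.7 and 2.77 ± 3.57 CPM, levels around that of 3 counts in a library. Others went the other way. miR-664-5p stood at 14.2 ± 8.42 CPM with DMSO and 27.3 ± 19.5 CPM with 27HC, and miR-664-3p at 10.8 ± 5.66 and 16.5 ± 10.6 CPM.

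Other names found in 10 or more genes, also listed after the matches were seen, differed among themselves and from miR-706. There were 4, of which 2 were tested. miR-3473b, found in 344 genes, rose with 27HC from 5036 ± 2121 to 26669 ± 6977 CPM (SD, n = 7), by 2.40 on the log2 scale (SE 0.25), at an edgeR adjusted p of 3.89e-06. miR-3470b, found in 546 genes, stood at 113 ± 113 and 72.4 ± 49.1 CPM, or −0.65 on the log2 scale (SE 0.68), at an edgeR adjusted p of 0.666.

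By replicate number miR-3470b resembled miR-706. It stood at 36.2 CPM in replicates 1 to 4 and at 216 CPM in replicates 5 to 7 with DMSO, and at 34.0 and 123 CPM with 27HC, without overlap in either treatment. miR-709 did so too, at 63.6 and 217 CPM with DMSO and at 96.1 and 282 CPM with 27HC. It is listed by its number, and its sequence was not among those searched. miR-3473b went the other way with DMSO, at 6434 CPM in replicates 1 to 4 and at 3172 CPM in replicates 5 to 7. Among the tested names with a match in many genes, the pattern across the libraries was thus not the same. miR-3471 and miR-3473a, found in 34 and 146 genes, were not tested and had 64 and 26 counts in all. Their means were higher in replicates 5 to 7 in both treatments. For miR-3471 they were 8.21 and 26.5 CPM with DMSO and 15.8 and 47.9 CPM with 27HC. For miR-3473a they were 1.03 and 17.6 CPM with DMSO and 1.76 and 26.7 CPM with 27HC. These values rest on few counts.

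**Figure D4:**
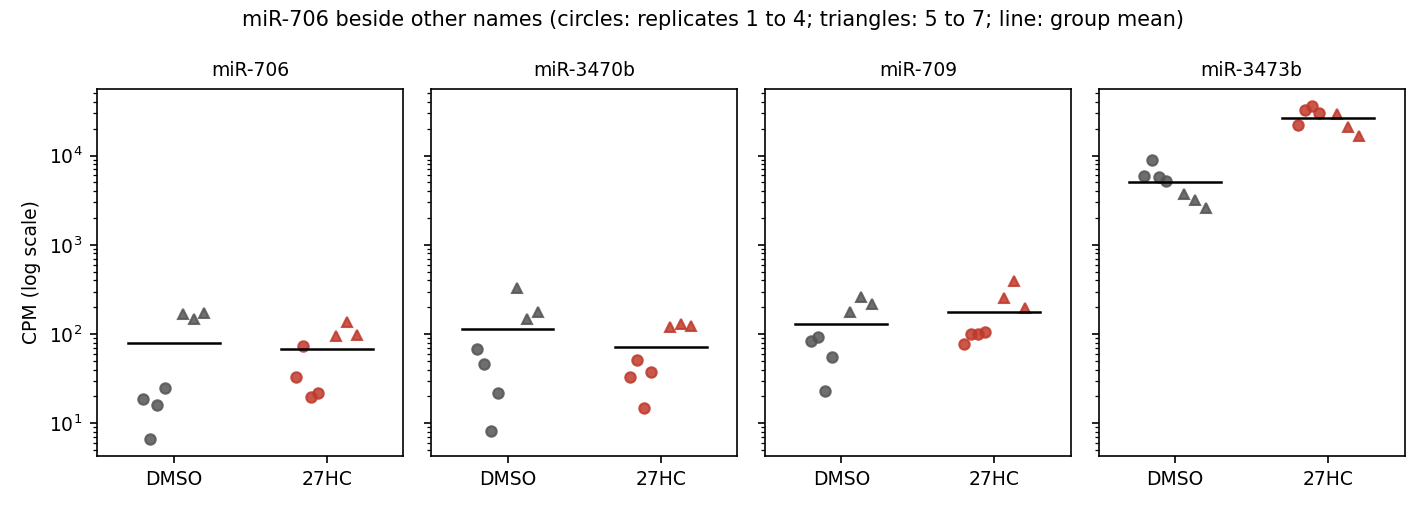
CPM of miR-706, miR-3470b, miR-709 and miR-3473b in each library, on a shared log scale, with symbols for the 2 sets of replicates. Triangles, replicates 5 to 7, lie above circles, replicates 1 to 4, for miR-706, miR-3470b and miR-709 in both treatments, and under them with DMSO for miR-3473b, which is the one of these names that is higher in every library with 27HC.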

How the data were processed

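The authors deposited raw counts, whole numbers per mature miRNA name and library, used here without change. The submitters' processing notes name R 4.1.2, edgeR, limma and the build GRCm39 (mm39). The aligner, the rule for reads that match several names and the use of the kit's molecular identifiers are not given in the sources used here. Per the labels' protocols, total RNA came from the miRNeasy Micro kit, and the QIAseq miRNA kit was used for library preparation. Intervals and limits cover counting error only.

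The comparison used edgeR 4.0.16 in R 4.3.3: TMM scaling, filterByExpr (minimum count 10, total 15), a quasi-likelihood test with treatment as the only term, and Benjamini-Hochberg adjustment over 239 tested names. The other 1456 were not tested. At an unadjusted p under 0.05 there were 53 names. CPM use TMM-scaled totals, and log2 CPM a prior count of 2. The code of the test was checked on simulated counts, with the same dispersion for every name and no sets of replicates. That check does not show how well the test does for the names here. All 42 pairs of libraries within a group differed by more than sampling noise (lowest chi-square per degree of freedom 5.57).

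The 6 names, the lists and the split of replicates were chosen with earlier results of these data known. Named genes are the 6, for each tested one the 3 names with the highest correlation, tested names within 10 of their numbers, and cell type markers. The lists by sequence match and the interaction were added after seeing the data. Alternatives covered scaling, filter, tool (DESeq2 1.42.0, limma-voom 3.58.1), dispersion, covariates, sets of replicates, single libraries and the match rule.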

Additional observations from a re-analysis of the deposited data

Results flagged for a closer look

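In 27HC replicate 5 miR-3968 stood at 1472 CPM, from 185 of 124574 counts (0.149%, 95% exact binomial interval 0.128% to 0.171%), far from the other 6 libraries of the group on the log2 scale. The next was 27HC replicate 6, at 311 CPM, and the gap was 0.578 of the whole range of the group, above the 95% critical value of Dixon's test for 7 libraries. Without this library the log2 fold change of miR-3968 was −0.86 in place of 0.026.

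The summed share of the 6 names in the same library was 0.186% (95% exact binomial interval 0.163% to 0.212%), beside 0.0787% in 27HC replicate 6, with a gap of 0.673 of the range. It holds the same reads of miR-3968 and is no separate observation. Of 12 groups of 7 libraries examined 2 were marked in this way, and chance marks about 1 in 20.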

How the results depend on the processing

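The log2 fold changes of miR-8112, miR-6240 and miR-3535 kept their sign in all 27 alternatives each, from −1.45 to −0.52, −1.42 to −0.51 and −1.06 to −0.40, and kept their call in 26, 19 and 17. The cause of each change below was not tested. In some alternatives fewer libraries or names entered. The sign of miR-3968 (0.026) changed under upper quartile scaling (−0.11), TMM without the 6 names (−0.0074), no filter (−0.14), the library total as a covariate (−0.45), a term for the replicate set (−0.37), limma-voom (−0.67) and in replicates 1 to 4 alone (−1.19), and single libraries left out gave −0.86 to 0.22. That of miR-706 (−0.21) changed under a term for the set (0.25) and limma-voom (0.46), and single libraries left out gave −0.45 to 0.22. The count of 3 called names was 0 in replicates 5 to 7 alone, 0 with a mean count of at least 100, where none of the 5 was tested, and 1 to 3 with single libraries left out. Without the filter the call of miR-3535 was lost (edgeR adjusted p 0.251). The 30 calls over all names became 12 in replicates 5 to 7 alone. Among other late-numbered names 4 calls became 10 without the filter. Among names of neighbouring number the 0 calls became 1 under RLE scaling, no filter, a mean count of at least 100, the library total as a covariate, the set term, replicates 5 to 7 alone and DESeq2, and 0 to 1 with single libraries left out. Other match rules (1 mismatch, or the first 18 bases) left 3 of the 6 names with a match, and moved the genes matched by miR-706 from 208 to 824 and 344.

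The labels share replicate numbers between the groups without saying that they pair libraries. Same-numbered libraries deviated together with r from 0.0686 to 0.600, over 0.1 in 6 of 7 pairs, and 3 of the 7 DMSO libraries correlated best with their own number. With a replicate block there were 37 calls, 3 of the 5 names were called, the sign of miR-3968 (−0.53) and of miR-706 (0.15) changed, and names of neighbouring number gave 1 call.

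Counts as low as 5 for miR-6240, 6 for miR-3535 and 2 for miR-706 in a library limit these values, and miR-706 could not be tested in replicates 1 to 4.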
